A study of Mus musculus with 24 samples.

Results

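The mouse embryonic stem cell (mESC) line with a knock-in allele of 20 CAG repeats in Htt, named Q20, was compared with the other 5 mESC lines of the series. The 2 libraries labelled Q20 mESC were set against all 10 other mESC libraries, out of 24 libraries in the series, the rest being neural progenitor cells (NPC) derived from the mESC. Htt encodes huntingtin, and long CAG tracts in its first exon cause Huntington's disease. The other mESC groups were an Htt knockout (KO), a wild type (WT) and the lines Q50, Q92 and Q111, with 2 libraries each. The Q20, Q50, Q92 and Q111 lines belong to an allelic series of heterozygous Hdh CAG knock-ins, Hdh being another name of the mouse Htt gene. The Q92 line has 92 repeats in its titles and 89 in the growth protocol. All mESC were grown with leukemia inhibitory factor on gelatin-coated plates with a feeder layer of CF-1 mouse embryonic fibroblasts. Every group is a single line, so repeat length, clone and culture history of the Q20 line cannot be told apart. The series calls its replicates biological samples without saying how their cultures were separated, so p-values measure only the spread between these samples.

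MicroRNAs are cut from hairpin precursors and repress mRNAs that pair with their seed, the bases near the 5′ end. The Mir302 to Mir367 and Mir290 to Mir295 clusters are typical of pluripotent cells, the first being linked with the primed, epiblast-like state and the second with the naive state of mESC. The paralogous Mir17-92, Mir106a-363 and Mir106b-25 clusters are common in dividing cells. The imprinted Dlk1-Dio3 region gives rise to the noncoding RNAs Meg3, Rian and Mirg from the maternal chromosome, together with many microRNAs and box C/D snoRNAs, and its silencing is a known source of variation between pluripotent lines.

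Of 1766 genes tested, 4 were higher in Q20 and 0 were lower (edgeR quasi-likelihood test, Benjamini-Hochberg adjusted p under 0.05), which is 0.227% and 0% of the genes tested. The 4 were the microRNA genes Mir302b and Mir367, the microRNA gene Mir409 of the Dlk1-Dio3 region, and Dnmt3b, which encodes a de novo DNA methyltransferase. Mir367 and Dnmt3b had enough counts for the test only through the Q20 libraries. The filter thus favoured a higher value in Q20, and their calls are no separate support. The count of calls depended on the libraries compared: it was 31 higher and 5 lower against replicate 1 of the other lines, 31 higher and 27 lower against replicate 2, and 1 higher and 0 lower with library totals or without either Q20 library. At an unadjusted p under 0.05, 69 genes were higher and 46 lower, and DESeq2 called 5 higher and 0 lower. Mir302b showed the widest difference, with 747 and 646 CPM in Q20 and 1.85 to 109.7 CPM elsewhere. CPM are counts per 1e+06 of the TMM-scaled library total, so they are not exact shares of a library. Along the Dlk1-Dio3 region all 27 genes tested had positive differences, though only 24 of them would have passed the filter in the other libraries alone. Of the 27, 1 was called against all 10 libraries, 18 against replicate 1 and 13 against replicate 2 of the other lines. Of all genes tested, 1.76% were called higher against each replicate number. The summed Mir290 to Mir295 microRNAs of Q20 lay inside the range of the other lines, and no gene of that cluster was called against all 10 libraries.

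The mature sequences of the microRNAs on which the results turn are given first, as RefSeq lists them for build GRCm38.p6, from 5′ to 3′ with the seed (bases 2 to 8) in capitals. The counts are per gene and do not separate the arms of a hairpin, so they do not say which of these products was read. The first set holds products of the Mir302 to Mir367 cluster on chromosome 3.
mmu-miR-302b-3p: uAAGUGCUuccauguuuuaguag
mmu-miR-302d-3p: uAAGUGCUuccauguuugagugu
mmu-miR-302c-3p: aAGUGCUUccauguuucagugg
mmu-miR-302b-5p: aCUUUAACaugggaaugcuuucu
mmu-miR-367-3p: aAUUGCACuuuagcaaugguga
The second set, from the Mir290 to Mir295 cluster on chromosome 7, is shown because it carries the same seed AAGUGCU as miR-302b-3p and miR-302d-3p.
mmu-miR-291a-3p: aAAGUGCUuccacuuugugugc
mmu-miR-294-3p: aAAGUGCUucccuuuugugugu
mmu-miR-295-3p: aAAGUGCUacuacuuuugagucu
The third set comes from the Mir106a-363 cluster on chromosome X, where miR-363-3p and miR-92a-3p share the seed AUUGCAC with miR-367-3p, and miR-106a-5p and miR-20b-5p share AAAGUGC, which overlaps AAGUGCU in the letters AAGUGC.
mmu-miR-363-3p: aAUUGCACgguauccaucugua
mmu-miR-92a-3p: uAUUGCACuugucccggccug
mmu-miR-106a-5p: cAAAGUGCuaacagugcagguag
mmu-miR-20b-5p: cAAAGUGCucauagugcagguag
The fourth set comes from the Dlk1-Dio3 region on chromosome 12 and shares no seed with the sets above.
mmu-miR-409-3p: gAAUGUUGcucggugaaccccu
mmu-miR-409-5p: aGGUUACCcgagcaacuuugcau
mmu-miR-127-3p: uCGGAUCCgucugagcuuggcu
mmu-miR-667-3p: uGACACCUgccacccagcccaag

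The libraries differed in depth along with the replicate number. The total count was 1795879 and 1901042 in Q20, 2134729 to 2360434 in the replicate 1 libraries of the other lines and 642384 to 1149003 in their replicate 2 libraries. The first principal component, with 33.2% of the variance, held replicate 1 of the other lines on one side and replicate 2 on the other, and the Q20 libraries lay between them. On the second component, with 12.7%, the Q20 libraries were the highest at 12.8 and 13.7, followed by Q111 replicate 2 at 9.14. The Q20 libraries were also closer to each other, with a correlation of log CPM across genes of 0.963 against 0.869 to 0.932 in the other lines. The chi-square statistic per degree of freedom, which grows with spread beyond counting noise, was 2.10 between the Q20 libraries. Between the 2 libraries of each other line it was 23.7 to 94.1. Whether the Q20 libraries were prepared apart from the others is not given in the sources used here and cannot be told apart from the line. Values against replicate 1 alone and replicate 2 alone of the other 5 lines are therefore given beside the results. Htt itself, the targeted gene, had 0 to 9 counts per mESC library, with 6 and 9 in Q20 and 3 and 2 in KO, too few for a test.

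The label mESC was checked against marker lists. Mir290 to Mir295 microRNAs stood at 1756 and 1788 summed CPM in Q20, inside the 927 to 3193 of the other mESC libraries. Let-7 microRNAs reached at most 4.8 and neural microRNAs at most 7.38 summed CPM in any mESC library, and no member of either list had enough counts for the test. Markers of mesoderm and endoderm were also below the test, with at most 2.56 summed CPM in any mESC library. Neural mRNAs summed to 17.8 and 9.21 CPM in Q20 and to 2.25 to 11.8 CPM in the others, with 1 of 12 tested, Slc1a3, which was not called. Feeder fibroblast mRNAs summed to 14.2 and 17.8 CPM in Q20 and to 15.3 to 29.0 CPM in the others, so the groups overlapped, and feeder microRNAs overlapped as well. Of the 18 feeder mRNAs listed, 8 had counts in mESC and 2, Fn1 among them, were tested, with 0 called. Of the 19 feeder microRNAs, 12 had counts and 1, Mir23a, was tested and not called. The fibroblast collagens Col1a1, Col1a2 and Col3a1 were among the listed mRNAs with 0 counts in every mESC library. In these bulk libraries, fewer cells of a type and less RNA per cell cannot be told apart.

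Mir302b (ENSMUSG00000076252, chr3:127545228-127545301, GRCm38, plus strand) lies in an intron of Larp7, a gene on the opposite strand with 17 counts over all mESC libraries. It had 1049 and 1122 counts in Q20, 747 and 646 CPM. Elsewhere the CPM were KO 8.65 and 1.85, WT 22.6 and 2.56, Q50 74.5 and 34.8, Q92 36.7 and 25.9, and Q111 109.7 and 31.4. Both Q20 libraries were above all 10 others. The mean was 697 ± 71.9 CPM in Q20 (SD, n = 2) and 34.9 ± 33.7 in the others (SD, n = 10), a log2 difference of 4.30 ± 0.62 (SE, edgeR adjusted p 0.000581). Against single lines the ratio of mean CPM was 132.7 over KO, 55.4 over WT, 12.7 over Q50, 22.3 over Q92 and 9.87 over Q111. By line mean, Q50, Q92 and Q111 lay between Q20 and the KO and WT lines, a difference that was not tested. Against replicate 1 of the other lines the log2 difference was 3.79, and against replicate 2 it was 5.19. The gene was called in both, and in all 27 alternative analyses, with log2 differences from 3.74 to 6.16 and adjusted p from 3.31e-32 to 0.0260.

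Mir367, at the 3′ end of the same cluster (chr3:127545733-127545807), had 35 and 33 counts in Q20. By line, replicate 1 then 2, the counts elsewhere were KO 0 and 0, WT 5 and 0, Q50 22 and 1, Q92 3 and 0, and Q111 11 and 4. Its CPM of 24.9 and 18.99 in Q20 lay above the 0 to 9.76 of the other libraries, whose median was 1.53. The log2 difference was 2.95 ± 0.60 (SE, edgeR adjusted p 0.0225). It was at least 22.3-fold higher than in KO, taking 3 counts over both KO libraries together as the floor. Against replicate 1 of the other lines the log2 difference was 2.42 and against replicate 2 it was 4.51, and it was called in both.

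The other 3 members of the cluster had too few counts for the test. The Q20 counts were 16 and 8 for Mir302a, whose highest count elsewhere was 6. They were 7 and 15 for Mir302c and 3 and 4 for Mir302d, each with at most 2 in any library of another line. With no filter on low counts Mir302a and Mir302c were called higher. Over all 5 members the cluster summed to 791 and 680 CPM in Q20 and to between 1.85 and 119 CPM in the other libraries. Nearly all of that sum was Mir302b in every Q20 library, so the cluster's members were counted very unequally.

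**Figure D1:**
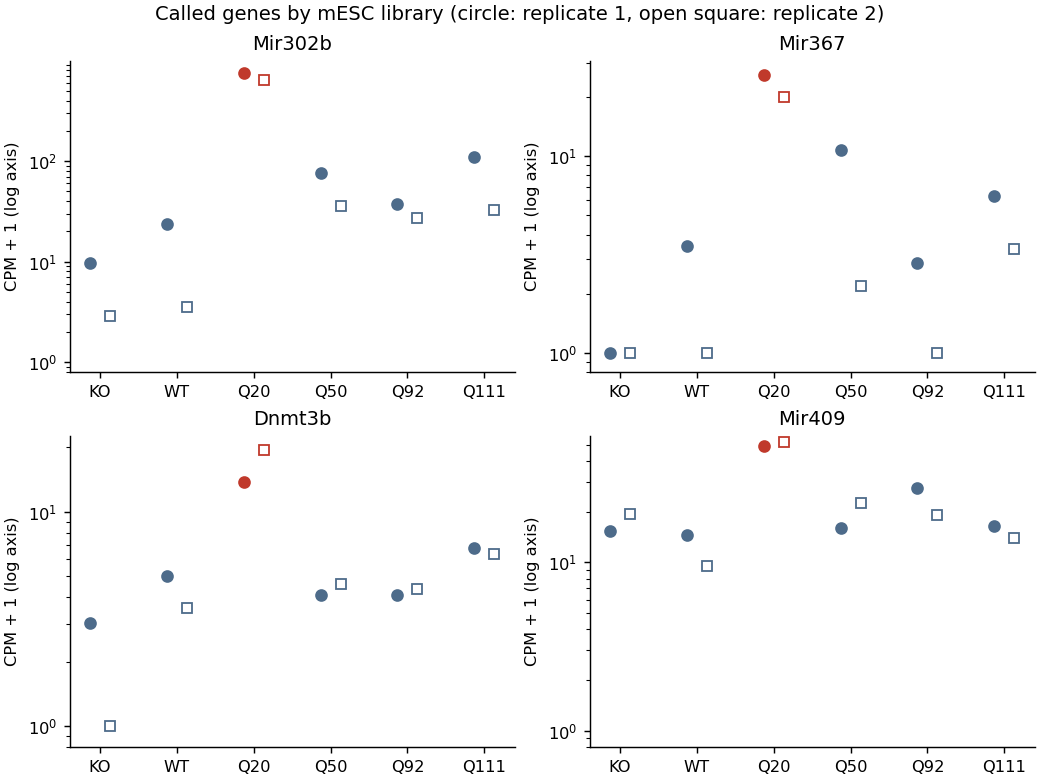
CPM + 1 on a log axis for the 4 genes called higher in Q20, by mESC line, with filled circles for replicate 1 and open squares for replicate 2. Both Q20 libraries lie above all 10 others in each panel, for Mir302b at 747 and 646 CPM against at most 109.7.

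Dnmt3b (ENSMUSG00000027478, chr2:153649450-153687730), a marker of the primed epiblast, was the one mRNA called. It had 18 and 32 counts in Q20. Elsewhere the counts were KO 4 and 0, WT 8 and 3, Q50 7 and 3, Q92 5 and 3, and Q111 12 and 9. Its CPM of 12.8 and 18.4 in Q20 lay above the 0 to 5.80 of the others, whose median was 3.24. The log2 difference was 2.17 ± 0.41 (SE, edgeR adjusted p 0.0188), and it was 2.11 and 2.31 against replicates 1 and 2 of the other lines, called in both. The counts are of RNA fragments in a small RNA library and are low. Dnmt3b passed the filter only through Q20, and 13.7% of its stretches of 30 bases also occur in its paralog Dnmt3c.

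Other markers of the primed state had low counts, and their list as a whole did not separate Q20. Its 10 mRNAs, Dnmt3b included, summed to 27.8 and 27.0 CPM in Q20 and to 7.38 to 28.5 CPM in the others. Of the 10 on that list, Otx2, an epiblast transcription factor, was the other one tested. It stood at 4.27 and 1.15 CPM in Q20 and 1.85 to 13.5 CPM in the others, with overlapping groups and a log2 difference of -0.96 ± 0.73 (SE, edgeR adjusted p 0.933).

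Mir409 (chr12:109743158-109743236) lies in an intron of Mirg and opposite Gm24321, which had 0 mESC counts. It had 68 and 88 counts in Q20, 48.4 and 50.6 CPM. The other libraries ranged from 8.52 to 26.7 CPM with a median of 15.3, so the groups did not overlap. The log2 difference was 1.59 ± 0.33 (SE, edgeR adjusted p 0.0225). By line the ratio of means was 3.03 over KO, 4.49 over WT, 2.70 over Q50, 2.21 over Q92 and 3.48 over Q111. Against replicates 1 and 2 of the other lines the log2 difference was 1.57 and 1.69, called in both.

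The calls of Mir367, Dnmt3b and Mir409 rested on both Q20 libraries. Without Q20 replicate 1 their edgeR adjusted p was 0.999, 0.128 and 0.537, and without Q20 replicate 2 it was 0.445, 0.773 and 0.773, so that Mir302b alone was called. Without Q111 replicate 2 the p of Mir367 and of Mir409 was 0.0635, leaving 2 genes called. Over all 27 alternatives the adjusted p ran from 3.17e-10 to 0.999 for Mir367, from 0.000331 to 0.773 for Dnmt3b and from 0.000276 to 0.773 for Mir409, with positive differences throughout. When library totals replaced the TMM scaling, Mir302b was the 1 gene called and the median difference over all genes moved from -0.08 to -0.34 on the log2 scale.

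Mir409 belongs to a long run of small RNA genes between the start of Meg3 and the end of Mirg on chromosome 12 (109541001 to 109749460). This interval holds 98 annotated genes, of which 60 had a count in mESC and 27 were tested. Its summed level was 12980 and 11180 CPM in Q20 and between 1959 and 7349 CPM in the other libraries, so both Q20 libraries were above all others. All 27 genes had a positive log2 difference, with a median of 1.40, beside a median of -0.08 over all genes tested. Both Q20 libraries were above all 10 others in 17 of the 27, or 63.0%, compared with 3.40% of all genes tested. Of the 27, 24 would have passed the filter in the other libraries alone. Mir667 and Mir382 passed it only through Q20 and are both among the 17, so they are no separate support. Neighbouring genes here come from shared transcripts, so they are not independent of each other.

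**Figure D2:**
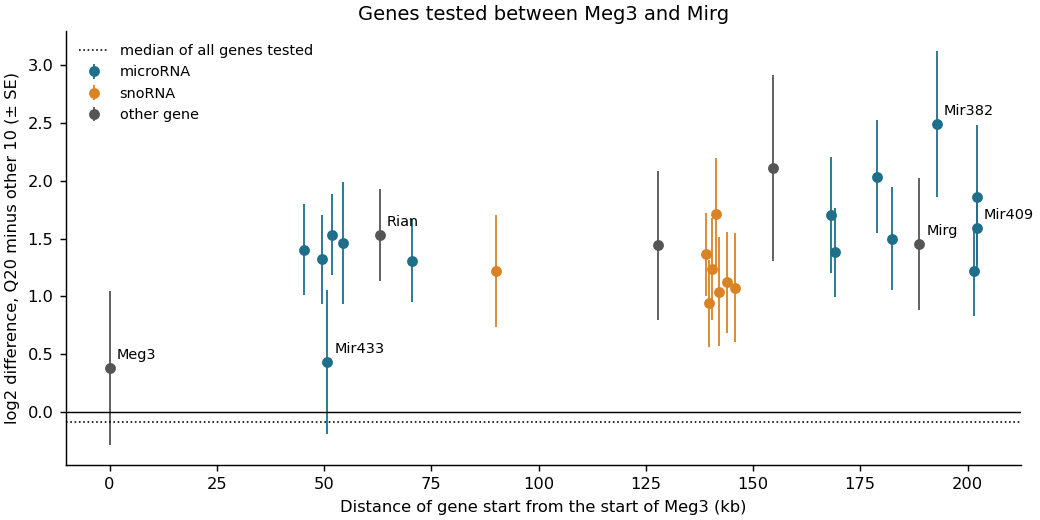
log2 difference between Q20 and the other 10 mESC libraries (± SE) for the 27 genes tested between Meg3 and Mirg, against the distance of each gene's start from that of Meg3 in kb. All points are above 0, from 0.38 at Meg3 to 2.49 at Mir382, and the dotted line is the median of all genes tested.

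The long noncoding transcripts of the interval had unequal differences. Rian, a noncoding RNA whose introns host snoRNAs and microRNAs (chr12:109603940-109661716), had 3330.1 and 2790.3 CPM in Q20. The others ranged from 334 to 1835 with a median of 1161, below both Q20 libraries. Its log2 difference was 1.53 ± 0.40 (SE), not called at an edgeR adjusted p of 0.166. Mirg, the transcript that hosts the distal microRNAs, stood at 61.3 and 79.4 CPM in Q20 and 7.10 to 68.6 in the others, with an overlap and a log2 difference of 1.45 ± 0.57. Meg3, at the start of the interval, had 4.99 and 5.75 CPM in Q20 within the 0.502 to 12.4 CPM of the others, and its log2 difference was 0.38 ± 0.66. The differences between these transcripts were not tested.

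Of the 60 microRNA genes in the interval, 14 were tested. All 14 had positive differences with a median of 1.48. Both Q20 libraries were above all others in 10 of the 14, where 3.40% of all genes were. By edgeR 1 was called, where 0.227% of all genes were. Only 12 of the 14 would have passed the filter in the other libraries alone. Mir667 and Mir382 passed it only through Q20 and are both among the 10, so they are no separate support. Mir127, the microRNA antisense to the imprinted gene Rtl1, had 52.0 and 54.7 CPM in Q20 and 11.1 to 37.1 in the others, a log2 difference of 1.53 ± 0.35 (SE, edgeR adjusted p 0.0660). Rtl1 itself had 0 mESC counts. Mir667 had 12.8 and 10.4 CPM in Q20 and 0 to 7.20 in the others, 2.04 ± 0.49 (SE, edgeR adjusted p 0.0973), and passed the filter only through Q20. Mir341, which lies in an intron of Rian, had 152 and 133 CPM in Q20 and 25.6 to 85.5 elsewhere, 1.31 ± 0.36 (SE, edgeR adjusted p 0.213). All 3 had groups that did not overlap.

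The other microRNAs of the interval ranged widely in difference. Mir382 had the highest at 2.49 ± 0.63, on 11 and 12 counts in Q20, and also passed the filter only through Q20. Mir433 had the lowest at 0.43 ± 0.62, with 3.56 and 7.48 CPM in Q20 inside the 0.852 to 13.5 CPM of the others. Mir379, Mir376b and Mir541 had differences of 1.70, 1.50 and 1.22, with 1 or more other libraries above a Q20 library. Summed over all 60 genes, microRNAs of the interval stood at 518 and 450 CPM in Q20 and at 117 to 306 CPM elsewhere.

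Of 23 snoRNA genes in the interval, 8 had counts and all 8 were tested. These are box C/D snoRNAs, RNAs that in general guide methylation of other RNAs and carry a C box near the 5′ end and a D box near the 3′ end. The sequences of 4 whose Q20 libraries were above all others are shown as in GENCODE release M21, with the C box letters TGATGA and the last CTGA in capitals. Both strings, in this order, occur in all 8 of the tested snoRNAs of the interval and in 24.0% of 1507 annotated snoRNA transcripts, searched on the transcript strand.
AF357428: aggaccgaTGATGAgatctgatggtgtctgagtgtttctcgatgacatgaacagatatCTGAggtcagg
AF357341: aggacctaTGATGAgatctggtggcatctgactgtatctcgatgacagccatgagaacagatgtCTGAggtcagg
Gm22981: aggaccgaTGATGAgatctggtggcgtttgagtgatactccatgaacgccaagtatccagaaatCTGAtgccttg
Gm23787: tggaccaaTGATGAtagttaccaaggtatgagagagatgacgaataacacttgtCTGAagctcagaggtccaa
AF357428 (chr12:109679945-109680013) had 1334 and 1272 CPM in Q20 and 235 to 792 in the others, a log2 difference of 1.37 ± 0.36 (SE, edgeR adjusted p 0.166). Gm22981 (chr12:109682384-109682458) had 2420 and 1935 CPM in Q20 and 155 to 1344 in the others, 1.72 ± 0.48 (SE, edgeR adjusted p 0.213). It shares 69.6% of its 30-base stretches with Gm23736, so reads of the 2 genes may have been split between them. AF357341 and Gm23787 had differences of 1.24 ± 0.44 and 1.12 ± 0.44. Median and range over the 8 were 1.17 and 0.94 to 1.72. By edgeR 0 were called against the 10 other libraries, with all 8 at an unadjusted p under 0.05, beside 115 of all 1766 genes. Against replicate 1 of the other lines 3 of the 8 were called higher and against replicate 2 it was 6, where 1.76% of all genes were called higher in each. The sum over the interval's snoRNAs was 9044 and 7839 CPM in Q20 and 1478 to 5467 elsewhere.

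The 27 genes of the interval were also compared within each replicate number. Against replicate 1 of the other lines, 18 of 27 were called higher and 0 lower, where 1.76% of all genes were called higher. All 27 differences were then positive, with a median of 1.57. Against replicate 2, 13 of 27 were called higher and 0 lower, again with 1.76% of all genes called higher, and 25 of 27 differences were positive with a median of 1.16. Meg3 and Mir433 were the 2 negative ones, at -0.36 and -0.06. Mir667 and Mir382, which passed the filter only through Q20, were among the genes called in both. These comparisons share the Q20 libraries.

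The NPC libraries were read for the same genes as a description and entered no test. The 64 genes followed by name were chosen in part by their Q20 mESC values or as list members with earlier results known. Their NPC counts are therefore no separate support. Both Q20 NPC libraries were above all 10 other NPC libraries in 31 of the 64 tested genes followed by name, and in 7.19% of all genes tested in mESC. Of the 31, 21 also had both Q20 mESC libraries above all other mESC libraries, as did 3.40% of all genes tested, a trait by which some of them were chosen. The other 10 of the 31 included Mirg and Meg3, and also Mir293, Mir295, Mir291a, Otx2 and Pou5f1, whose levels in Q20 mESC overlapped those of the other lines. Meg3, Mir295, Mir291a and Pou5f1 had Q20 NPC means below the 6.52 and 5.62 CPM that 3 counts were worth in those libraries.

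**Figure D3:**
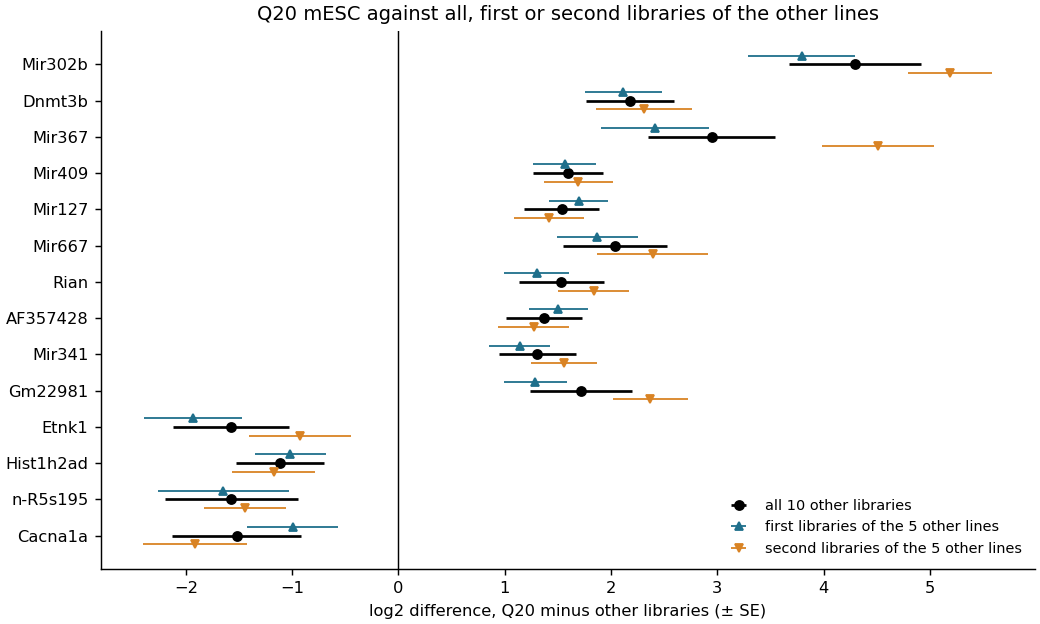
log2 difference (± SE) of the 14 genes named by the selection rule, for Q20 against all 10 other mESC libraries and against replicate 1 (first) or replicate 2 (second) of the other 5 lines. Mir302b lies at 4.30, 3.79 and 5.19, and the direction is the same in all 3 comparisons for each of the 14 genes.

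The Mir290 to Mir295 microRNAs, the other cluster typical of pluripotent cells, were set beside it. Of the 9 genes of this cluster, 7 were tested and 0 were called in either direction by edgeR against the 10 other libraries, with 0 at an unadjusted p under 0.05. The median difference was -0.56 and the range was -1.03 to 0.02. The sign of the median depended on the replicate number: it was 0.31, with 4 of 7 positive and 0 called, against replicate 1 of the other lines, and -0.96, with 1 of 7 positive and 1 called lower, against replicate 2. Of all genes tested, 1.53% were called lower against replicate 2. Mir293 stood at 1173 and 1210 CPM in Q20 and 673 to 1871 in the others. Mir295, which shares its seed with miR-302b-3p, had 74.1 and 62.1 CPM in Q20 and 30.4 to 195 in the others, a log2 difference of -0.62 ± 0.59 (SE, edgeR adjusted p 0.964). It was at 0.54 against replicate 1 and at -1.23, called lower, against replicate 2 of the other lines. Mir291a, with the same seed, had a difference of -0.09 ± 0.43, and 0.36 against replicate 1. The difference between the clusters was not tested.

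The Mir106a-363 cluster on chromosome X had higher values in Q20 without a call. Its sum was 173 and 150 CPM in Q20 and 35.8 to 118 CPM elsewhere, so the groups did not overlap. Mir106a had 102 and 73.7 CPM in Q20 and 13.6 to 60.2 in the others, a log2 difference of 1.44 ± 0.42 (SE, edgeR adjusted p 0.259). Mir92-2 and Mir20b also had both Q20 libraries above all others, with differences of 1.26 ± 0.45 and 1.05 ± 0.41, so that 3 of the 5 tested did not overlap, beside 3.40% of all genes. Mir363 and Mir19b-2 overlapped, at 1.32 ± 0.55 and 0.51 ± 0.44. Against replicate 2 of the other lines 3 of the 5 were called higher, where 1.76% of all genes were. Against replicate 1 none was, by edgeR, with 4 of the 5 at an unadjusted p under 0.05, beside 280 of all 1766 genes. Mir106b of the Mir106b-25 cluster on chromosome 5 had the opposite sign, 2.85 and 4.60 CPM in Q20 and 1.20 to 17.7 in the others, a log2 difference of -1.35 ± 0.66 with overlapping groups.

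**Figure D4:**
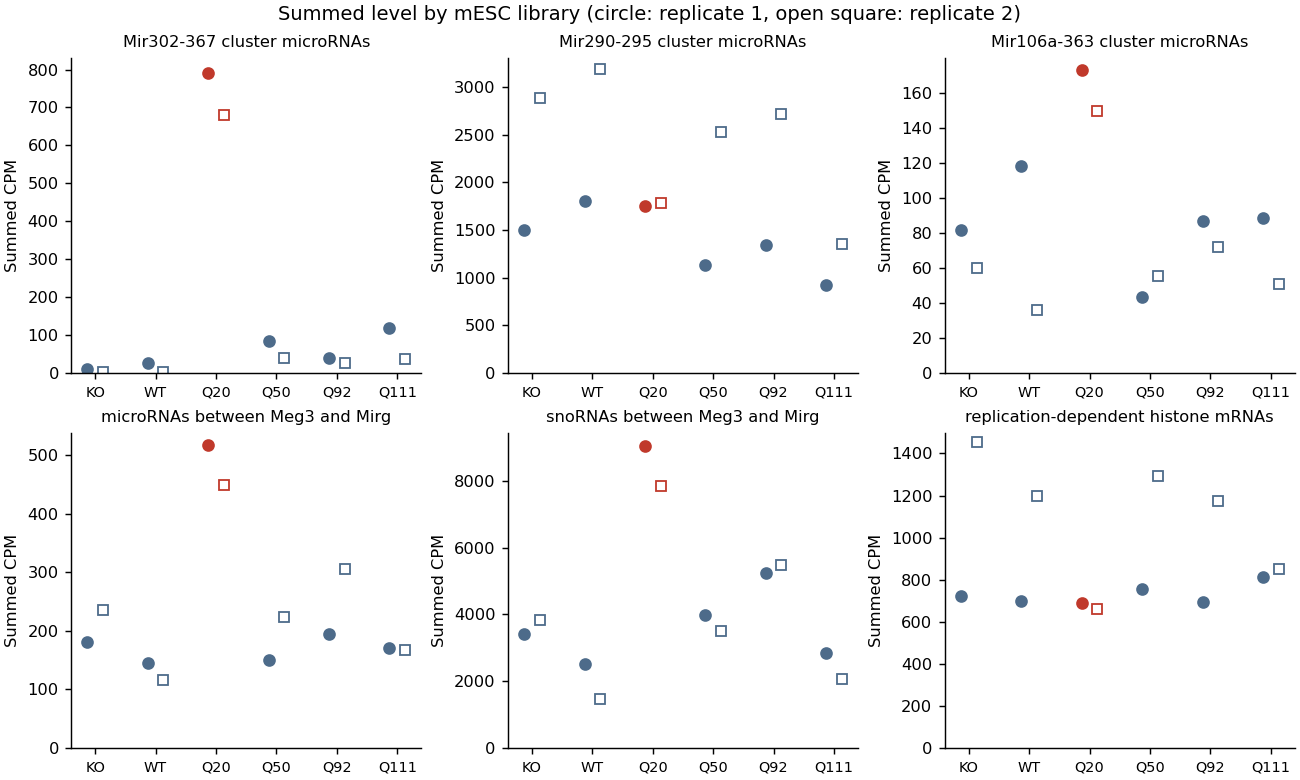
Summed CPM per mESC library for 6 RNA groups, on linear axes from 0, with filled circles for replicate 1 and open squares for replicate 2. Q20 lies above all other libraries for Mir302 to Mir367, Mir106a-363 and the microRNAs and snoRNAs between Meg3 and Mirg, inside their range for Mir290 to Mir295, and at 690 and 660 CPM just below all others for histone mRNAs.

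Over all microRNA genes 50 were tested, of which 3 were called higher and 0 lower, where 0.227% and 0% of all genes were. The median difference was 0.19, and both Q20 libraries were above all others in 16 of the 50, against 3.40% of all genes. Only 47 of the 50 would have passed the filter in the other libraries alone. Mir367, Mir667 and Mir382 passed it only through Q20 and are all among the 16, so they are no separate support. Of those 16, 10 lay between Meg3 and Mirg. The total of microRNA genes was 0.302% and 0.334% of counts in Q20, within the 0.163% to 0.497% of the other mESC libraries.

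Fragments of pluripotency mRNAs were scarce and did not separate Q20. Of 21 general and naive markers 13 were tested. By edgeR 0 of the 13 were called, with 2 at an unadjusted p under 0.05, beside 115 of all 1766 genes. The median difference of the 13 was -0.50, and 10 of 13 differences were negative. Tfcp2l1, a transcription factor of the naive state, had 1 and 3 counts in Q20, 0.712 and 1.73 CPM, below the 2.37 to 8.71 CPM of all others. Its log2 difference was -2.08 ± 0.68 (SE, edgeR adjusted p 0.417). Nanog, another factor of the pluripotency network, had 2.85 and 5.18 CPM in Q20 and 4.62 to 9.60 in the others, -0.87 ± 0.42, with overlapping groups. Pou5f1 and Sox2, core factors of the same network, had differences of -0.22 ± 0.56 and -0.50 ± 0.46, which turned to 0.41 for Pou5f1 against replicate 1 and to 0.073 for Sox2 against replicate 2 of the other lines.

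Genes with lower values in Q20 were not called in the comparison with all 10 libraries, and 31 genes, 1.76%, had both Q20 libraries below all others. Etnk1, which encodes ethanolamine kinase, had 4.99 and 4.03 CPM in Q20 and 6.0 to 27.4 in the others, a log2 difference of -1.58 ± 0.55 (SE, edgeR adjusted p 0.452). The 5S ribosomal RNA gene n-R5s195 had 15.7 and 12.7 CPM in Q20 and 17.2 to 126 in the others, -1.57 ± 0.63 (SE, edgeR adjusted p 0.590). Cacna1a, a calcium channel subunit gene, had 4.27 and 4.60 CPM in Q20 and 5.93 to 33.6 in the others, -1.52 ± 0.61 (SE, edgeR adjusted p 0.590). Each of these 3 had 22 or fewer counts per Q20 library. Within a replicate number, 5 genes (0.283%) were called lower against replicate 1 of the other lines and 27 (1.53%) against replicate 2. Etnk1 and Mir106b were among the 5, and Cacna1a, n-R5s195, Mir295 and Tet2, a DNA demethylation enzyme, were among the 27.

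Replication-dependent histone mRNAs, which end in a stem-loop instead of a poly(A) tail, lay mostly on the negative side. Of 43 tested, 38 had negative differences, with a median of -0.59 beside -0.08 over all genes. By edgeR 0 of the 43 were called, with 2 at an unadjusted p under 0.05, beside 115 of all 1766 genes. The sum of the histone mRNAs was 690 and 660 CPM in Q20 and 695 to 1457 CPM in the others. Replicate 1 of the other lines lay at 695 to 813 CPM and replicate 2 at 853 to 1457 CPM, so the sum moved with the replicate number, whose part in the difference was not tested. Hist1h2ad had 9.97 and 9.21 CPM in Q20 and 13.7 to 31.5 in the others, a log2 difference of -1.11 ± 0.41 (SE, edgeR adjusted p 0.568), and shares 68.3% of its 30-base stretches with other histone genes and gene models.

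**Figure D5:**
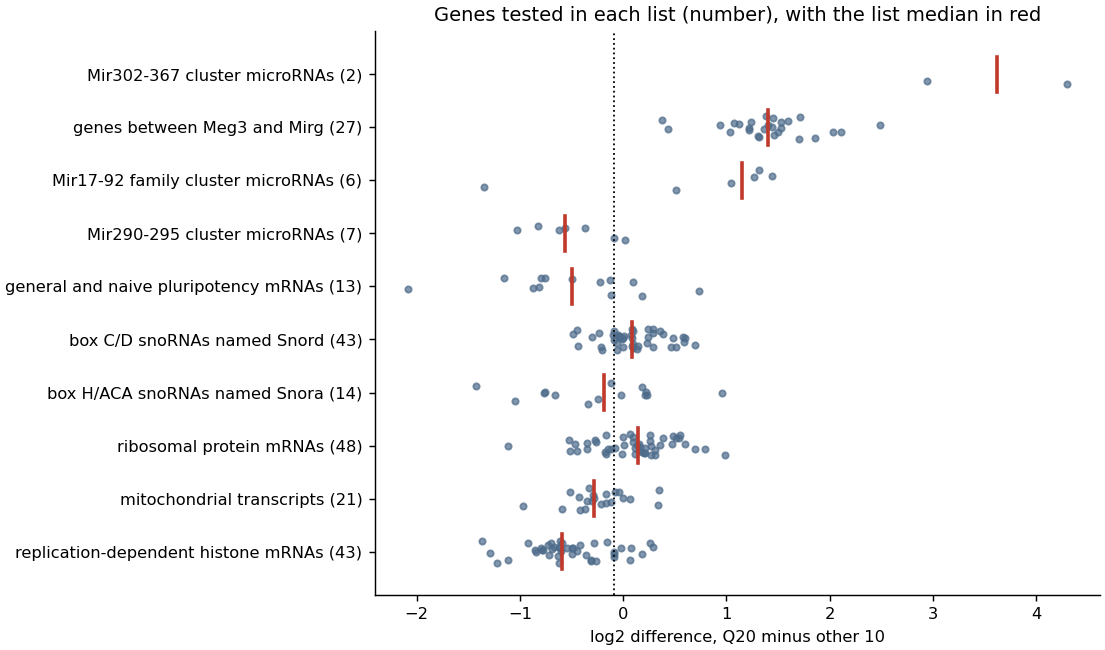
log2 difference of each tested gene in 10 lists, with the list median in red and the median of all genes tested (-0.08) as a dotted line. Genes of the Mir302 to Mir367 cluster (median 3.62) and of the Meg3 to Mirg interval (1.40) lie to the right, and histone mRNAs (-0.59) mostly to the left.

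No gene was called among the abundant structural RNA classes. Of 43 Snord genes tested, which are box C/D snoRNAs, 0 were called by edgeR, and the median difference was 0.09. At an unadjusted edgeR p under 0.05 there was 1 of the 43, beside 115 of all 1766 genes. That 1 was Snord65, with 98789 and 88092 CPM in Q20 and 33392 to 78828 in the others, a log2 difference of 0.70 ± 0.28 (SE, edgeR adjusted p 0.590). Its neighbour Snord49a, in the same host locus on chromosome 11, overlapped, with 194058 and 159739 CPM in Q20 and up to 181815 in the others. The 14 Snora genes tested, box H/ACA snoRNAs that in general guide pseudouridylation, had a median of -0.18, 7 small Cajal body RNAs -0.56, 4 spliceosomal snRNAs -0.38 and 3 Y RNAs -0.45. For 48 ribosomal protein mRNAs the median was 0.14 and for 21 mitochondrial transcripts -0.28. With library totals the median of the Snord genes was -0.17 and that of the ribosomal protein mRNAs -0.15, so the sign of these 2 depended on the scaling. It also turned with the replicate number of the other lines. The ribosomal protein median was 0.89 against replicate 1, with 44 of 48 positive and 1 called higher, and -0.35 against replicate 2, with 9 of 48 positive and 2 called lower. The Snord median was -0.13 against replicate 1 and 0.38 against replicate 2, with 3 called higher in the latter. Of all genes tested, 1.76% were called higher against each replicate number and 1.53% lower against replicate 2. No gene of these classes was called against the 10 other libraries.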

How the data were processed

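The deposited file holds raw whole-number read counts per gene, made by the authors before deposit. The submitters' processing notes name CASAVA 1.8, STAR, HTSeq and the build GRCm38.p6, without roles. Per the labels' protocols, DNase-treated TRIzol RNA was sequenced as single-end reads on an Illumina HiSeq instrument. Adapter trimming, strand setting and treatment of multi-mapping reads are not given in the sources used here. These affect short RNAs with copies or antisense partners.

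Columns were assigned to samples by their names. The columns named Q89 were taken as the line titled Q92. Identifiers were matched without version to GENCODE M21 (GRCm38): 55154 of 55335 matched. Tests used edgeR 4.0.16 in R 4.3.3 (glmQLFit, glmQLFTest) on the 12 mESC libraries, Q20 against the other 10 as 1 group, with TMM scaling and filterByExpr (minimum count 10, minimum total 15). The filter kept 1766 genes, 46 of them through the Q20 libraries alone. P-values were adjusted over all 1766 genes and called under 0.05. CPM are counts divided by the TMM-scaled total, times 1e+06. The SE is the absolute log2 difference divided by the square root of F. The script was tested on simulated data.

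Named genes had a log2 difference of at least 1, at least 10 CPM in the higher group and Q20 libraries outside the range of the others. All called genes that met this were taken, then up to 6 more per direction by p without the adjusted threshold. Other genes are named as list members, and the genes called lower within a replicate number were chosen after their values were seen. The comparison, lists and members were chosen with earlier results of these data known. Alternatives were other scalings, no filter, DESeq2 1.42.0, 6 genotype groups, a replicate block, subsets of lines or replicate numbers, and leaving out each library.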

Additional observations from a re-analysis of the deposited data

Results flagged for a closer look

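In 1 of 64 genes checked, a library lay far from the other 9 of the comparison group, where chance alone gives about 1 in 20 groups. That gene was n-R5s195, with 125.5 CPM in Q50 replicate 1 and 60.0 CPM in the next highest library.

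The NPC libraries were not part of the comparison. Both Q20 NPC libraries were above all 10 other NPC libraries in 31 of the 64 genes followed by name, and in 7.19% of all 1766 genes. The 64 were chosen in part by their Q20 mESC values, so the 31 are no separate support. The values are given as descriptions. In the Q20 NPC libraries 3 counts were worth 6.52 and 5.62 CPM. Means below these rest on few counts, as those of Mir92-2, Mir412, Meg3, Mir295, Mir433, Mir291a and Pou5f1. The mean in Q20 NPC was 262.9 CPM for Mir302b, whose highest value in another NPC library was 2.50. It was 16.2 CPM for Mir367 and 8.09 for Dnmt3b, both with 0 counts in all other NPC libraries. Mir302a, Mir302c and Mir302d, with too few mESC counts for the test, had 7, 4 and 2 counts over the Q20 NPC libraries and 0 over all others. In the Meg3 to Mirg interval the Q20 NPC means were 1287 CPM for Rian, 1142 for AF357341, 1073 for AF357428, 513 for Gm22981, 393 for Gm23787, 37.4 for Gm23736, 18.8 for Mirg and 4.05 for Meg3, and the highest other NPC library had 141 CPM, for Rian. The microRNAs of the interval had Q20 NPC means of 86.4 CPM for Mir341, 31.8 for Mir409, 26.5 for Mir127, 10.1 for Mir411, 9.18 for Mir665, 6.22 for Mir136, 20.1 for Mir541, 8.24 for Mir376b, 5.92 for Mir667, 3.90 for Mir412 and 2.02 for Mir433. Of the Mir106a-363 cluster, Mir106a stood at 17.0 CPM, Mir20b at 12.9 and Mir92-2 at 4.98, each with 0 in all other NPC libraries. Snhg14, the imprinted host transcript of other snoRNAs, stood at 12.0 CPM in Q20 NPC. Genes whose mESC levels overlapped between Q20 and the other lines were among the 31 as well: Mir293 at 107.9 CPM, Otx2 at 6.22, Mir295 at 3.11, and Mir291a and Pou5f1 at 2.02 each, all with 0 in the other NPC libraries. The Mir290 to Mir295 sum was 141 and 148 CPM in Q20 NPC and its part in these values was not tested. Whether the Q20 difference is the same in both cell types was not tested.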

How the results depend on the processing

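The number of genes called higher was 4, with 0 lower. It was 1 with library totals, 15 of 17642 genes without the filter, 1 against the knock-in lines alone, 1 without the WT line and 2 without the Q111 line. Leaving out 1 library at a time gave 1 to 6 higher, with 1 when either Q20 replicate was left out and 2 without Q111 replicate 2. The low side had 0 calls in each of these. Against replicate 1 of the other lines 31 genes were called higher and 5 lower, and against replicate 2 31 were higher and 27 lower. The cause of these shifts was not tested. DESeq2 size factors, the DESeq2 test, 6 genotype groups, KO and WT alone, and leaving out KO, Q50 or Q92 gave 3 to 6 higher and 0 lower. Mir302b was called in all 27 alternatives.

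With the replicate number as a replicate block, 21 of the 1766 genes tested were called higher and 0 lower. Between Meg3 and Mirg, 17 of the 27 genes tested were called higher. The replicate number tied the 10 other libraries together but not Q20, so it was not taken as pairing all groups. Any 2 of the other 5 lines shared their replicate difference, with correlations from 0.408 to 0.516 across genes, whereas Q20 with each of them gave 0.000145 to 0.0784.

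Among the 64 genes followed by name, 9 turned sign in at least 1 alternative, and none of these differences was called. Against replicate 1 of the other lines Mir295 was at 0.54, Mir291a at 0.36 and Pou5f1 at 0.41. Against replicate 2, Meg3 was at -0.36, Mir433 at -0.064, Mir294 at 0.41, Fn1 at 0.20, Sox2 at 0.073 and Mir293 at -0.18. Mir293 was at -0.27 with library totals, -0.31 against KO and WT alone, -0.062 without the Q50 line and -0.10 without the Q111 line. Mir291a was at 0.21 against the knock-in lines and 0.057 without the WT line, and Pou5f1 at 0.043 without the Q92 line. Leaving out 1 library at a time gave -0.19 to 0.021 for Mir291a, -0.049 to 0.12 for Mir293 and -0.92 to 0.20 for Pou5f1. Mir433 was at -0.21 without Q20 replicate 2 and at 0.83 without Q20 replicate 1. Depth limits the low side: 3 counts were worth 1.33 to 3.60 CPM across the mESC libraries.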

Other observations

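Imprinted genes outside the Dlk1-Dio3 region were tested in small number. Of 20 such genes listed, 6 were tested. By edgeR 0 of the 6 were called, with 2 at an unadjusted p under 0.05, beside 115 of all 1766 genes. Those 2, Mest and Snhg14, also had both Q20 libraries above all others, as did 3.40% of all genes. Mest, a paternally expressed gene, had 7.84 and 6.91 CPM in Q20 and 0 to 6.84 in the others, a log2 difference of 1.52 ± 0.69 (SE, edgeR adjusted p 0.716). Snhg14 had 10.7 and 6.33 CPM in Q20 and 1.19 to 5.31 in the others, 1.37 ± 0.45 (SE, edgeR adjusted p 0.417), and passed the filter only through Q20.

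Among microRNA genes the lowest difference was that of Mir16-1, chosen after its values were seen. Mir16-1, of the Mir15a and Mir16-1 pair on chromosome 14, had 1 and 1 counts in Q20 and 80 over the other 10 libraries, a log2 difference of -3.03 ± 1.19 (SE, edgeR adjusted p 0.590, with a range of 0.00159 to 0.999 over the alternatives). Its neighbour Mir15a had 2 and 8 counts in Q20 and 104 over the others, -1.13 ± 0.71. Slc1a3, a glutamate transporter and the one neural mRNA tested, had 14.2 and 6.91 CPM in Q20 and 2.25 to 9.03 in the others, 1.07 ± 0.41 (SE, edgeR adjusted p 0.590), with overlapping groups.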
